A study of Mus musculus with 24 samples.

Results

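The comparison described here sets whole livers that lacked both IkkB and Shp2 in hepatocytes (Double KO) against whole livers that lacked Shp2 alone (Shp2 KO), so it shows what IkkB loss added when Shp2 was already missing. Its members were the 12878 of 24319 genes in the liver table that the submitters' Cuffdiff run had tested for this pair, each with an expression value of at least 0.1 in either genotype. The remaining genes comprised 11414 with too few reads to be tested and 27 flagged for too many reads at their locus. Some of the 27 had low values themselves, such as Nr1i3 at 48.7 in Double KO livers. The study covered 24 RNA libraries from 2-month-old male mice of the C57/BL6 strain, made from whole liver or from isolated hepatocytes, with 3 biological replicates in each of 8 groups.

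IkkB, encoded by Ikbkb, is the catalytic kinase that marks IkB inhibitors for destruction and so releases Rel-family factors (NF-κB) to the nucleus. Ptpn11 encodes Shp2, a phosphatase that couples growth factor and cytokine receptors to the Ras-Erk cascade. In the liver NF-κB is known for survival signalling and inflammatory gene expression, and the Ras-Erk route for proliferation and for control of bile acid and lipid genes. The study's title concerns joint disruption of both routes, the circadian clock and liver tumours.

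Double KO mice were labelled Alb-Cre+;IkkBf/f;Shp2f/f, Shp2 KO mice Alb-Cre+;Shp2f/f, IkkB KO mice Alb-Cre+;IkkBf/f, and WT mice wild type. Alb-Cre is a Cre recombinase under the albumin promoter, active in hepatocytes, so Kupffer cells and endothelial cells keep both genes. The labels do not say whether bile duct and progenitor cells keep them. Double KO and Shp2 KO livers therefore shared the Cre and the loss of Shp2 and differed in the IkkB allele. The wild type label names neither a Cre nor a floxed allele. No time of day was given for tissue collection, so a difference in collection time and an effect of genotype on rhythmic genes cannot be told apart.

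Each gene had 1 pooled expression value per genotype, the authors' Cuffdiff value (a length- and depth-scaled level by that program's convention), and no value per mouse. The spread among the 3 livers of a group, and whether 1 liver carried a pooled value, could therefore not be read, and sequencing depth is unknown. The only test was the authors' own: a gene was called, and is said to have risen or fallen, where its q-value in the authors' deposited table was under 0.05. The smallest q that table gives is 0.000955, shared by 455 of the genes called here. Differences are log2 of (Double KO value + 1) over (Shp2 KO value + 1), which understates the change of genes of low expression. Strand-aware counting was not stated, so reads of overlapping or antisense genes cannot be told apart.

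Ikbkb fell, at 6.31 in Double KO and 14.2 in Shp2 KO livers, a log2 difference of -1.05. Its value was 9.48 in IkkB KO and 15.7 in WT livers, so it was lower in the IkkB-deleted genotype of both pairs. Ptpn11 was low in both genotypes that carried its deletion, at 6.09 in Double KO and 4.09 in Shp2 KO livers, beside 10.1 in IkkB KO and 12.5 in WT livers. The remaining Ptpn11 level was higher in Double KO than in Shp2 KO livers, and the authors' deposited table gave that difference a q of 0.0226. These are whole-gene values from tissue that holds undeleted cells, and exon-level values are not analysed here. Markers of cells that keep both genes, such as macrophages, also rose in Double KO livers, and their part in the Ptpn11 difference was not tested.

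Of the 12878 genes, 1388 were called (10.8%), with 1023 higher (7.94%) and 365 lower (2.83%) in Double KO livers. Every count of list members below is to be read against these shares, and several lists lie near them. The median difference was 0.60 among genes that rose and -0.67 among genes that fell, beside a median of about 0 over all genes tested (-0.0025). Among the 4477 genes with a value of at least 10 in both genotypes the median was -0.10, so moderate shifts of abundant genes are read against that value. Before adjustment, 1746 genes were higher and 920 lower at p under 0.05. A difference of at least 1 on the log2 scale was reached by 108 of the genes that rose and 70 of those that fell.

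The balance of calls moved with expression level. Of 1889 genes whose higher value lay between 0.1 and 1, 209 rose and 26 fell, and of 6058 genes between 1 and 10, 616 rose and 134 fell. Between 10 and 100 the calls were 170 higher and 136 lower of 4000 genes. At 100 or more, 28 of 931 genes rose and 69 fell, with a median difference of -0.22. Another 23 genes differed by at least 2 on the log2 scale without a call, 19 of them with microRNA or small nucleolar RNA symbols, 15 of which were listed at 0 in Double KO or Shp2 KO livers. The lowest member by its higher value was Aldh1a2, which makes retinoic acid, at 0.315 in Double KO and 0.27 in Shp2 KO livers and not called. No tested gene lay under the minimum of 0.1, so there is no member just outside it.

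**Figure D1:**
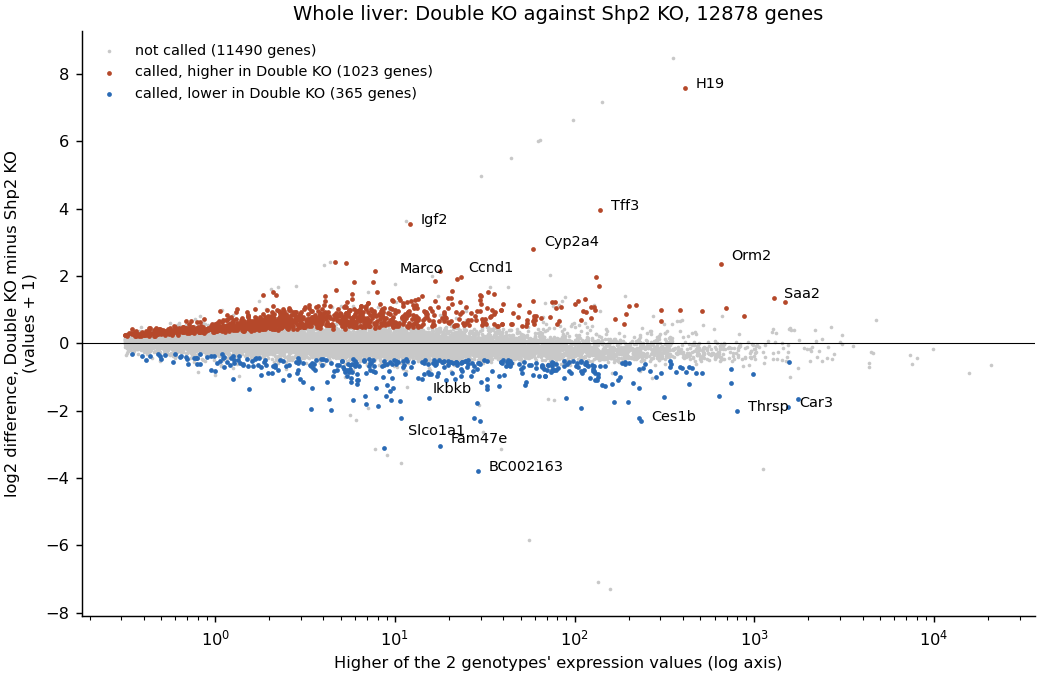
Each point is 1 of the 12878 genes, with the higher of its Double KO and Shp2 KO expression values on a log axis and the log2 difference, Double KO minus Shp2 KO (values + 1), on the vertical axis; the 1023 genes called higher and 365 called lower are coloured. The calls below a value of 10 lie mostly above 0, H19 stands highest among the called genes, and the grey points beyond 4 or -4 are mostly small RNA genes.

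The largest rise was that of H19, an imprinted long non-coding RNA of fetal liver that is largely silent in the adult organ. H19 was at 411 in Double KO and 1.15 in Shp2 KO livers (log2 difference 7.58), with 0.549 in IkkB KO and 0.440 in WT livers. Igf2, the fetal growth factor imprinted together with H19, was at 12.1 in Double KO and 0.131 in Shp2 KO livers (3.53), with 0.132 in IkkB KO and 0.188 in WT livers. The Double KO value thus stood apart from all 3 other genotypes for both genes. H19 and Igf2 lie on chromosome 7 with 1 annotated gene (Gm33148) between them in RefSeq order. In isolated hepatocytes the same pair of genotypes gave the opposite direction: H19 fell, at 14.1 in Double KO and 24.5 in Shp2 KO hepatocytes, and Igf2 fell, at 0.189 in Double KO and 1.93 in Shp2 KO hepatocytes. Whether a single liver carried the H19 and Igf2 values was not tested.

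Tff3, a secreted mucosal peptide, was at 139 in Double KO and 8.03 in Shp2 KO livers (3.95), beside 28.2 in IkkB KO and 36.1 in WT livers. For this gene Shp2 KO livers had the lowest value of the 4 genotypes. Ccnd1, the cyclin that drives entry into the cell cycle, was likewise lowest in Shp2 KO livers: 22.2 in Double KO and 5.14 in Shp2 KO livers, beside 15.3 in IkkB KO and 20.3 in WT livers. The other large rises were those of the steroid-metabolising enzymes Cyp2a4 (58.7 in Double KO and 7.60 in Shp2 KO livers) and Akr1c18 (5.32 in Double KO and 0.208 in Shp2 KO livers), the membrane protein gene Tmc5 (4.67 in Double KO and 0.0657 in Shp2 KO livers), and the trypsin inhibitor gene Spink1 (17.8 in Double KO and 3.28 in Shp2 KO livers). Prtn3, a neutrophil serine protease, was at 7.77 in Double KO and 0.998 in Shp2 KO livers. In isolated hepatocytes Cyp2a4, Spink1 and Prtn3 were called lower in Double KO than in Shp2 KO, opposite to whole liver. Tff3, Ccnd1, Akr1c18 and Tmc5 were called higher there. The remaining members of the 12 largest rises, Orm2, Lcn2 and Marco, are described with their groups.

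In a list of 25 fetal liver and tumour marker transcripts, 15 of 23 tested members rose and none fell, with a median difference of 0.66. Spp1, which encodes osteopontin, was at 137 in Double KO and 41.9 in Shp2 KO livers. Prom1, a progenitor and bile duct cell surface protein, was at 2.17 in Double KO and 0.172 in Shp2 KO livers. Afp, the classical fetal liver protein, rose to 2.33 in Double KO against 1.28 in Shp2 KO livers. Gpc3, also a fetal and tumour antigen, was at 0.538 in Double KO and 0.545 in Shp2 KO livers and was not called, nor were the imprinted genes Meg3, Peg3, Mest and Cdkn1c. Several of these transcripts also mark bile duct cells, and 5 of 12 tested markers of bile duct and progenitor cells rose, among them Sox9 at 0.780 in Double KO and 0.347 in Shp2 KO livers. The defining duct keratin Krt19 was at 2.00 in Double KO and 1.51 in Shp2 KO livers, and Krt7 at 1.04 in Double KO and 1.02 in Shp2 KO livers, neither called. The summed value of the 15 duct and progenitor markers in the table was 157 in Double KO and 55.1 in Shp2 KO livers, most of it Spp1, and its part in the fetal and tumour marker rises was not tested.

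**Figure D2:**
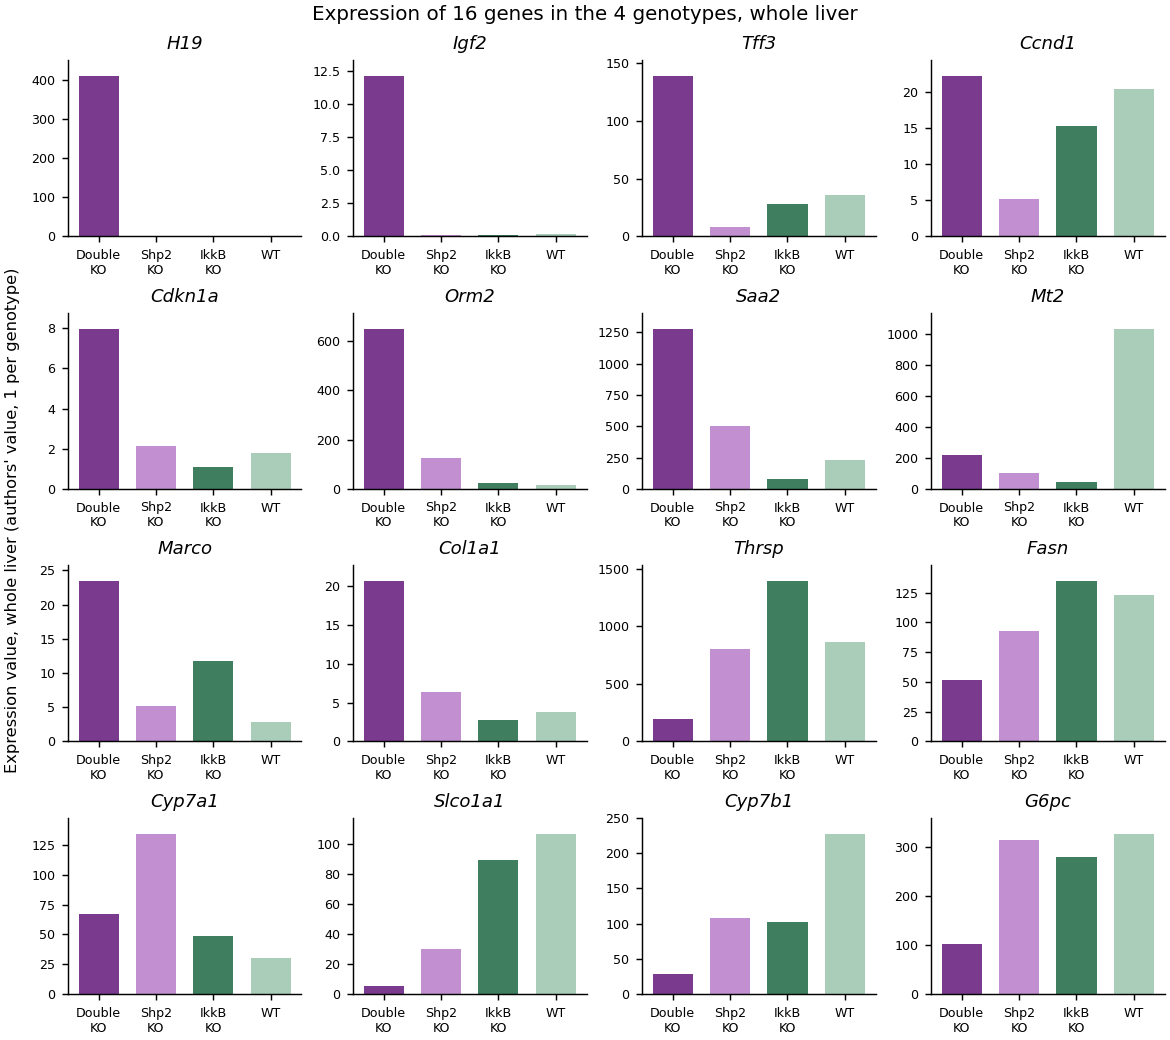
Bars give the authors' expression value of 16 genes in whole liver of Double KO, Shp2 KO, IkkB KO and WT mice, on a linear axis from 0 for each gene, with 1 pooled value per bar and no error. H19 and Igf2 are high in Double KO livers alone, Tff3 and Ccnd1 are lowest in Shp2 KO livers, and Mt2 is highest in WT livers.

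Macrophage transcripts rose together. Of 19 markers of macrophages and Kupffer cells, 16 rose and none fell, with a median difference of 0.95. Marco, a scavenger receptor of Kupffer cells, was at 23.4 in Double KO and 5.24 in Shp2 KO livers, beside 11.7 in IkkB KO and 2.78 in WT livers. Adgre1, which encodes F4/80, was at 9.59 in Double KO and 3.32 in Shp2 KO livers, and Cd5l, a secreted Kupffer cell protein, at 114 in Double KO and 45.5 in Shp2 KO livers. The 3 members without a call were Clec4f and Timd4, which mark resident Kupffer cells, and the haemoglobin scavenger receptor Cd163. Clec4f was at 66.9 in Double KO and 49.8 in Shp2 KO livers, and Timd4 at 6.40 in Double KO and 4.58 in Shp2 KO livers. The summed value of the 19 markers was 936 in Double KO and 457 in Shp2 KO livers, beside 422 in Double KO and 327 in Shp2 KO hepatocytes. Of 18 markers tested in hepatocytes, 3 were called higher and 1 lower. The 1 called lower was Marco, at 7.43 in Double KO and 14.5 in Shp2 KO hepatocytes, opposite to its direction in whole liver. More cells of a type and more RNA per cell cannot be told apart in bulk tissue, here or in any group below.

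A list of monocyte markers moved the same way, with 7 of 10 tested members higher. The list is mixed, because its calls included Trem2, Gpnmb, Cd9 and Spp1, which are not confined to monocytes. Spp1 is also on the duct and fetal lists, so the count does not single out newly recruited monocytes. Trem2, a receptor of lipid-associated macrophages, was at 5.44 in Double KO and 1.77 in Shp2 KO livers, and Gpnmb, found in the same cells, at 2.20 in Double KO and 0.608 in Shp2 KO livers. Ccr2, the receptor that draws monocytes into tissue, was at 1.47 in Double KO and 0.669 in Shp2 KO livers. Of 12 neutrophil genes in the table, 5 had too few reads to be tested, and the 7 that were tested were called higher. The calcium-binding alarmins S100a8 (14.1 in Double KO and 4.67 in Shp2 KO livers) and S100a9 (13 in Double KO and 4.79 in Shp2 KO livers) led that list, whose summed value was 33.1 in Double KO and 11.6 in Shp2 KO livers.

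Lymphocyte markers rose in smaller numbers, with calls for 3 of 13 tested T and NK cell markers and 2 of 8 tested B and plasma cell markers. Endothelial markers included 5 calls of 17, all higher, among them Cdh5 (VE-cadherin) at 7.48 in Double KO and 4.09 in Shp2 KO livers. None of 10 tested hepatocyte markers was called in either direction, and their median difference was -0.15. Ttr, the plasma carrier transthyretin, was at 5731 in Double KO and 7357 in Shp2 KO livers, and the hepatocyte identity factor Hnf4a at 166 in Double KO and 157 in Shp2 KO livers, so the labelled tissue carried its defining markers in both genotypes. Alb was too abundant to be tested. Red blood cell markers were not called in either direction, with Hbb-b2 at 33.5 in Double KO and 38.2 in Shp2 KO livers.

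Of 28 tested collagen and matrix genes 20 rose and none fell, with a median difference of 0.67. Col1a1 and Col3a1, the fibrillar collagens of scar tissue, were at 20.7 and 35.4 in Double KO livers, against 6.33 and 12.2 in Shp2 KO livers. IkkB KO livers had 2.71 of Col1a1 and WT livers 3.77, so the Double KO value was the highest and the Shp2 KO value the next. Mmp2, a gelatinase of activated stellate cells, was at 4.23 in Double KO and 1.73 in Shp2 KO livers, and Mmp12, a macrophage elastase, at 2.07 in Double KO and 0.627 in Shp2 KO livers. Of 18 stellate cell and fibroblast markers, 9 rose and 1 fell. Acta2, the smooth muscle actin of activated stellate cells, was called at 4.14 in Double KO and 2.14 in Shp2 KO livers. Its value was 2.84 in IkkB KO and 5.80 in WT livers, so for Acta2 the WT value was the highest. Lrat, which stores retinoids in resting stellate cells, was at 3.20 in Double KO and 2.97 in Shp2 KO livers without a call. In isolated hepatocytes, 4 of 26 tested matrix genes were higher and 2 lower, with Col1a1 at 1.79 in Double KO and 1.65 in Shp2 KO hepatocytes.

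Of 28 tested genes of antigen presentation 8 rose and none fell. Those that rose were the class II genes H2-Aa, H2-Ab1, H2-Eb1, H2-DMa, H2-DMb1 and Cd74 with the class II and class I transactivators Ciita and Nlrc5. H2-Aa was at 104 in Double KO and 43.1 in Shp2 KO livers, and the invariant chain gene Cd74 at 199 in Double KO and 91.3 in Shp2 KO livers. On the same list the class I genes H2-K1, H2-D1 and B2m, the Tap transporters and the immunoproteasome subunits were not called. Outside the list, the class I genes H2-Q8 (12.4 in Double KO and 7.07 in Shp2 KO livers) and H2-Q9 (16.5 in Double KO and 8.78 in Shp2 KO livers), which are close copies of each other and were picked after their values were seen, rose, by the q in the authors' deposited table. The values in the other genotypes were of the same size, with H2-Aa at 98.1 in IkkB KO and 44.3 in WT livers and Cd74 at 193 in IkkB KO and 90.6 in WT livers. Of the same 28 genes, 18 rose in IkkB KO livers relative to WT.

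Of 29 tested chemokines and chemokine receptors, 13 rose and none fell. Cxcl13, which attracts B cells, was at 4.07 in Double KO and 1.11 in Shp2 KO livers, and Ccl6, a macrophage chemokine, at 15.6 in Double KO and 6.99 in Shp2 KO livers. Of 20 tested Toll-like receptors and adaptors 6 rose, counting the co-receptor Cd14 (9.81 in Double KO and 3.57 in Shp2 KO livers). The 1 that fell was Tlr5, the flagellin receptor (2.75 in Double KO and 5.12 in Shp2 KO livers). These genes are expressed by macrophages, whose markers rose in the same libraries, and the part of those cells in the calls was not tested.

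Interferon-response genes rose at low expression values. Of 26 type I interferon response genes, 12 rose and 1 fell (median difference 0.42), and of 22 interferon-gamma induced GTPases and related genes, 10 rose and 1 fell. Oasl2, Oas1a and Ifit2, which encode antiviral proteins, were at 4.30, 3.77 and 1.92 in Double KO livers, against 2.06, 1.79 and 0.875 in Shp2 KO livers. Gbp2, a guanylate-binding protein, was at 3.58 in Double KO and 1.69 in Shp2 KO livers. Xaf1 went the other way, at 3.28 in Double KO and 9.75 in Shp2 KO livers. Xaf1 is itself known as an interferon-induced, pro-apoptotic gene.

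The promoter windows of Ifit1 (3.86 in Double KO and 2.29 in Shp2 KO livers) and Ifit3 (7.14 in Double KO and 4.69 in Shp2 KO livers) are shown because a tandem repeat of the interferon-response kind recurred in this group. The windows are RefSeq sequences of build GRCm38.p6, 250 bases before to 50 after the gene start, 5′ to 3′ on the gene's strand, with matches in capitals to the interferon-response-like motif, which is GAAA, any 2 bases and GAAA again, on either strand. The motif was present in 6 of the 10 called members of the type I list that had a window, and in 3.44% of all 32851 windows of this length. The 2 genes each hold 2 matches, and in the Ifit3 window 1 of the motifs searched, the PU.1-like GAGGAA, shares 3 bases with a match.
Ifit1, chr19:34640639-34640938, plus strand: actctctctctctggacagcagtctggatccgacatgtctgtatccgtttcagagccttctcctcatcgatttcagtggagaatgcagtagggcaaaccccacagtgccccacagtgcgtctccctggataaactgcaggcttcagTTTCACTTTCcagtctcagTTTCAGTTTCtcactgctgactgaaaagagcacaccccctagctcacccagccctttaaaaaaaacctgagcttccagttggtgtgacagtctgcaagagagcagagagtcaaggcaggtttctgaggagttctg
Ifit3, chr19:34583279-34583578, plus strand: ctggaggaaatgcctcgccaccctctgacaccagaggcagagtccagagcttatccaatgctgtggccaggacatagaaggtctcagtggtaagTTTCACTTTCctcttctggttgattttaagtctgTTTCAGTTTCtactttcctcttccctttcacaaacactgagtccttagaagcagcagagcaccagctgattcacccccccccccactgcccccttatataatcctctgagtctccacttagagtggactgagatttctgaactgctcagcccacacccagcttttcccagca
The motif was chosen after the values were seen, and a match describes the letters alone.

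Acute phase proteins, which hepatocytes secrete under IL-6 and IL-1 signals, rose in a subset: of 24 tested members 5 were called, each of them higher, namely Saa1, Saa2, Lcn2, Orm2 and Orm3. Orm2, an orosomucoid, was at 650 in Double KO and 126 in Shp2 KO livers (2.36), beside 22.8 in IkkB KO and 14.8 in WT livers. Lcn2, a siderophore-binding protein that neutrophils also carry, was at 131 in Double KO and 32.6 in Shp2 KO livers. Saa1 and Saa2, serum amyloid A genes, were at 1474 and 1280 in Double KO livers, against 636 and 504 in Shp2 KO livers. Saa1 and Saa2, and the Orm genes, are near-identical copies, so the split of reads within each pair is uncertain. Orm1, Hp, Crp and the fibrinogen genes were not called. Socs3, the feedback inhibitor of IL-6 signalling, rose to 15.1 in Double KO against 8.39 in Shp2 KO livers, and the IL-6 family receptor Osmr to 1.54 in Double KO against 0.895 in Shp2 KO livers, while Lifr, the receptor of leukaemia inhibitory factor, fell to 26.8 in Double KO against 43.7 in Shp2 KO livers.

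In isolated hepatocytes the acute phase list moved the other way, with none of 24 tested members higher and 11 lower (median difference -0.76). Saa2 was at 266 in Double KO and 1940 in Shp2 KO hepatocytes, and Lcn2 at 26.1 in Double KO and 237 in Shp2 KO hepatocytes. Orm2 was at 174 in Double KO and 627 in Shp2 KO hepatocytes. The metallothionein genes Mt1 and Mt2, which bind zinc and respond to stress, showed the same reversal. In whole liver Mt1 was at 386 in Double KO and 194 in Shp2 KO, and Mt2 at 220 in Double KO and 99.6 in Shp2 KO, both called higher. In hepatocytes Mt1 was at 46.6 in Double KO and 1226 in Shp2 KO, and Mt2 at 26.1 in Double KO and 952 in Shp2 KO, both called lower. The difference between the tables was not tested.

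The windows of Saa1, Saa2, Lcn2 and Orm2 are shown because each called acute phase gene held a match to TTGCNNAA (the C/EBP-like motif, either strand, capitals), 5 of 5 with a window. These 5 are not independent, because Saa1 and Saa2, and Orm2 and Orm3, are near copies with the match at nearly the same place. The same motif was in 10.8% of all windows and 8.82% of those of tested genes. It was in 11.1% of windows of genes called higher and 14.2% of those of genes called lower. A κB-like motif, GGGA then any base then TTTCC on either strand, was in 0 of the 5 and in 0.411% of all windows. A motif this rare would be missing from most sets of 5 windows, so its absence here says nothing about NF-κB binding. Other forms of the κB site were not searched. Source, build and layout are as for the interferon genes.
Saa1, chr7:46742931-46743230, minus strand: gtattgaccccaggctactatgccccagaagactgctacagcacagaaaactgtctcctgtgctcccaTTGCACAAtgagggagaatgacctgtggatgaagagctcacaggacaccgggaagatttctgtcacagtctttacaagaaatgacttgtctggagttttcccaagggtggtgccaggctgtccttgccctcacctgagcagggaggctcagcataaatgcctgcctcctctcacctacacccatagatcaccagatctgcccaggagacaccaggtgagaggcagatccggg
Saa2, chr7:46751583-46751882, plus strand: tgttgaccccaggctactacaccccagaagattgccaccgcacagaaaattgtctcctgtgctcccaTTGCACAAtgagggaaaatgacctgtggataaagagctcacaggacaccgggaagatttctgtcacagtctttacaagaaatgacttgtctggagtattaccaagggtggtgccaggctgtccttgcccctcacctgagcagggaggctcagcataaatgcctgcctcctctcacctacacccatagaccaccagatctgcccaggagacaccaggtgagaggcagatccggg
Lcn2, chr2:32387690-32387989, minus strand: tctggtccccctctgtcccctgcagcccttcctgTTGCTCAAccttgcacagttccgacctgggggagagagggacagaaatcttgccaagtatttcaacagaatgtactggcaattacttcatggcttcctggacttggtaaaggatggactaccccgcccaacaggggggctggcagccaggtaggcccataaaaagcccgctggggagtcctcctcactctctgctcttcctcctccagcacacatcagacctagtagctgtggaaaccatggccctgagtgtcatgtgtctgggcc
Orm2, chr4:63362199-63362498, plus strand: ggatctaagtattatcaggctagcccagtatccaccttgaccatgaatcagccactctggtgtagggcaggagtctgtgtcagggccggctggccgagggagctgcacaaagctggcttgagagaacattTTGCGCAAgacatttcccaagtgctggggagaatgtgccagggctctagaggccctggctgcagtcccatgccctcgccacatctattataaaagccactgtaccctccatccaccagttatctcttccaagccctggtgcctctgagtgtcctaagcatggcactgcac
The Saa1 and Saa2 windows can be read against each other as near copies, and both hold the same 8 capital letters.

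Within the pathway that IkkB serves, Ikbkb was the sole call. Of 17 tested genes for the IKK complex, Rel factors and IkB inhibitors the median difference was 0.02. Chuk, the sister kinase IkkA, was at 29.4 in Double KO and 32.9 in Shp2 KO livers, and Ikbkg, the regulatory subunit, at 17.4 in Double KO and 17.3 in Shp2 KO livers. Rela was at 23.3 in Double KO and 24.3 in Shp2 KO livers, Nfkb1 at 5.98 in Double KO and 5.51 in Shp2 KO livers, and Nfkbia, the IkB gene that Rel factors induce, at 26.0 in Double KO and 29.0 in Shp2 KO livers. Relb (2.00 in Double KO and 1.32 in Shp2 KO livers) and Map3k14 (1.83 in Double KO and 1.25 in Shp2 KO livers), both of the alternative pathway, had the largest positive differences without a call. The other members, Ikbke, Tbk1, Nfkb2, Nfkbib, Nfkbie, Nfkbiz, Bcl3, Traf2 and Traf3, differed by -0.30 to 0.31 on the log2 scale, and Rel had too few reads to be tested.

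Of 26 tested NF-κB target genes, 4 rose and none fell, with a median difference of 0.29. Besides Lcn2 these were Vcam1, a leukocyte adhesion molecule of endothelium (9.13 in Double KO and 4.47 in Shp2 KO livers), the T cell chemokine Ccl5 (7.64 in Double KO and 3.86 in Shp2 KO livers) and the neutrophil gelatinase Mmp9 (0.585 in Double KO and 0.203 in Shp2 KO livers). All 4 are also expressed by cells outside the hepatocyte lineage, and the part of those cells in these calls was not tested. In isolated hepatocytes none of 23 tested targets was higher and 6 were lower, with a median difference of -0.28.

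Of 15 tested feedback inhibitors and targets of the Ras-Erk cascade 6 rose and none fell: the inhibitors Dusp4, Dusp6, Spry4 and Spred1 and the targets Egr1 and Ccnd1. Dusp6, the Erk phosphatase, was at 7.91 in Double KO and 4.61 in Shp2 KO livers, beside 13.3 in IkkB KO and 12.1 in WT livers. Spred1 was at 1.43 in Double KO and 0.583 in Shp2 KO livers, beside 2.04 in IkkB KO and 1.91 in WT livers. Spry4 was at 0.793 in Double KO and 0.346 in Shp2 KO livers, beside 2.75 in IkkB KO and 2.33 in WT livers. For these 3 inhibitors the Double KO value lay between the Shp2 KO value and those of both genotypes that keep Shp2. Egr1, an early target of Erk, was at 4.33 in Double KO and 2.65 in Shp2 KO livers, beside 2.81 in IkkB KO and 3.94 in WT livers. None of the 15 was called in IkkB KO livers relative to WT. The Ptpn11 value also was higher in Double KO than in Shp2 KO livers, as given above, and its part in these calls was not tested.

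Mitotic genes rose at low expression values. Of 24 tested genes of mitosis and the G2/M phase, 14 rose and none fell (median difference 0.53), and each of the 24 had a positive difference. Ccnb2, a mitotic cyclin, was at 3.72 in Double KO and 1.41 in Shp2 KO livers, beside 0.630 in IkkB KO and 0.487 in WT livers. Birc5 (survivin) was at 6.18 in Double KO and 2.73 in Shp2 KO livers, and Mki67, the proliferation antigen Ki-67, at 1.18 in Double KO and 0.533 in Shp2 KO livers. Among 25 tested genes of DNA replication and the G1/S step, Ccnd1 was the sole call. In isolated hepatocytes 22 of 26 tested mitotic genes rose and none fell, with a median of 0.72 and Mki67 at 1.68 in Double KO and 0.560 in Shp2 KO hepatocytes. None of 12 tested members was called in IkkB KO livers relative to WT.

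Cdkn1a, which encodes the cell cycle inhibitor p21, rose alongside these genes, at 7.98 in Double KO and 2.14 in Shp2 KO livers, beside 1.09 in IkkB KO and 1.80 in WT livers. Of 22 tested p53 target genes 4 rose and 1 fell, and Mdm2, the p53 ligase, was at 12.5 in Double KO and 11.5 in Shp2 KO livers without a call. Gadd45g, the member that fell, was at 29.8 in Double KO and 58.5 in Shp2 KO livers. Of 25 tested genes of death receptors, necroptosis and the Bcl2 family 4 rose, among them Ripk3, the necroptosis kinase (1.99 in Double KO and 1.04 in Shp2 KO livers), and Bmf fell.

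The windows of Ccnb2 and of Cdk1 (3.16 in Double KO and 1.78 in Shp2 KO livers) are shown because they carry both elements known from cell cycle promoters, TTTGAA (the CHR) and CCAAT, either strand, in capitals. TTTGAA was in 10 of 12 called mitotic genes with a window and in 17.9% of all windows, and CCAAT in 11 of 12 and in 37.4% of all windows. TTTGAA was also in 6 of 10 called male-biased genes with a window, a list without rises. Its share was 12.3% for tested genes, 16.2% for genes called higher and 16.5% for genes called lower. The 2 motifs share no base in these windows.
Ccnb2, chr9:70421505-70421804, minus strand: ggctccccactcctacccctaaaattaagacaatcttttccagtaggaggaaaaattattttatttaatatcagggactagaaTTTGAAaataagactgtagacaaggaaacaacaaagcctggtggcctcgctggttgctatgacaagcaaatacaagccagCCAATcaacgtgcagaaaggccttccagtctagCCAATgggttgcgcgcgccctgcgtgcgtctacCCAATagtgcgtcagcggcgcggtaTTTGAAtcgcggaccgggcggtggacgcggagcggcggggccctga
Cdk1, chr10:69352863-69353162, minus strand: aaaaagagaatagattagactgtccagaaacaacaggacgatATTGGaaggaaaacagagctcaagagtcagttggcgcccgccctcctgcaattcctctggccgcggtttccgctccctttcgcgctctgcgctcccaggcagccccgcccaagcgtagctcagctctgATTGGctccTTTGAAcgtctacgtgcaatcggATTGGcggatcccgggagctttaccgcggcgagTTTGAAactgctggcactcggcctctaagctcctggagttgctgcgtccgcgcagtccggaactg
These motifs too were chosen after the values were seen.

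Sex-biased liver genes, whose pattern in males follows pulsed growth hormone and Stat5 signalling, shifted in whole liver. Of 20 tested male-biased genes none rose and 14 fell, with a median difference of -1.23, the lowest of the lists examined. Slco1a1, an organic anion carrier, was at 5.27 in Double KO and 29.9 in Shp2 KO livers, beside 89.5 in IkkB KO and 107 in WT livers. Ugt2b38, a glucuronosyltransferase, was at 0.118 in Double KO and 8.72 in Shp2 KO livers, beside 5.73 in IkkB KO and 17.5 in WT livers. Cyp7b1, the oxysterol hydroxylase, was at 27.8 in Double KO and 108 in Shp2 KO livers, beside 102 in IkkB KO and 228 in WT livers. Double KO livers thus had the lowest value of the 4 genotypes for all 3 genes.

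Some tested major urinary protein genes were called lower too, with Mup17 at 5.08 in Double KO and 27.4 in Shp2 KO livers, Mup1 at 1.56 in Double KO and 10.9 in Shp2 KO livers, and Mup21 at 58.7 in Double KO and 199 in Shp2 KO livers. Mup genes are near-identical copies among which reads can be split in any way. Several others were not tested, among them Mup20, at 5308 in Double KO livers and listed at 0 in Shp2 KO livers. A direction for the Mup family as a whole can therefore not be given. Of 18 tested female-biased genes 6 rose and 2 fell (median 0.41). Cux2, a female-specific repressor, was at 0.866 in Double KO and 0.128 in Shp2 KO livers, and Cyp2a4 is given above. Cyp2c69 and Cyp2c40 fell, with Cyp2c69 at 13.2 in Double KO and 30.2 in Shp2 KO livers. Bcl6, a male-biased repressor, fell to 2.25 in Double KO against 5.43 in Shp2 KO livers, and Onecut1 fell to 2.01 in Double KO against 5.68 in Shp2 KO livers. Ghr, Stat5b, Socs2 and Igf1 were not called.

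IkkB loss with Shp2 present gave the same directions for these lists, with 11 of 17 tested male-biased genes lower and 11 of 14 tested female-biased genes higher in IkkB KO than in WT livers. In isolated hepatocytes the directions were opposite: 5 of 20 male-biased genes were higher and 1 lower, and none of 19 female-biased genes was higher and 13 were lower in Double KO than in Shp2 KO. Cux2 was at 0.0705 in Double KO and 4.78 in Shp2 KO hepatocytes.

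**Figure D3:**
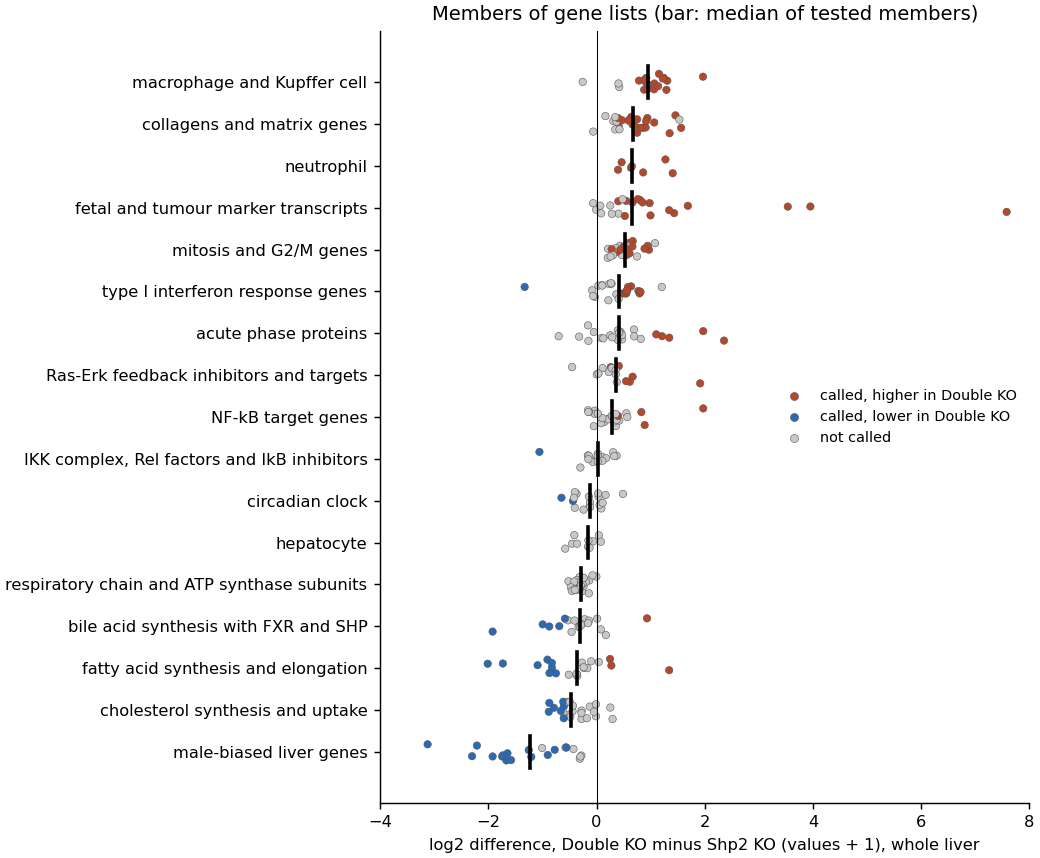
Each point is a tested gene of a list, placed by its log2 difference, Double KO minus Shp2 KO (values + 1), in whole liver, with calls in colour and a black bar at the median of the list. Medians run from 0.95 for macrophage and Kupffer cell markers to -1.23 for male-biased liver genes, and the hepatocyte markers and respiratory chain genes carry no call.

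Of 18 tested core clock genes none rose and 2 fell in whole liver, with a median difference of -0.13. Over all tested genes 10.8% were called in either direction, 7.94% higher and 2.83% lower. The number of clock calls was near that share for both directions together, but both calls were in the rarer direction. With 2 calls, nothing further is read from their direction. Bhlhe41, a repressor of Clock-Bmal1 activity, was among those that fell, at 0.639 in Double KO and 1.22 in Shp2 KO livers. The activators Arntl (Bmal1) and Clock were at 0.556 and 2.11 in Double KO livers, against 0.514 and 1.92 in Shp2 KO livers. Among repressors, Per1 was at 19.3 in Double KO and 13.5 in Shp2 KO livers, Per2 at 5.18 in Double KO and 6.99 in Shp2 KO livers, and Per3 at 4.59 in Double KO and 6.38 in Shp2 KO livers, none of them called. Cry1 was at 2.47 in Double KO and 2.80 in Shp2 KO livers and Cry2 at 10.2 in Double KO and 13.8 in Shp2 KO livers. Nr1d1, which encodes Rev-erb alpha, was at 42.8 in Double KO and 46.7 in Shp2 KO livers, and the output factor Dbp at 82.3 in Double KO and 110 in Shp2 KO livers. The other tested members, Nr1d2, Rora, Ciart, Bhlhe40, Tef, Hlf and Nfil3, differed by -0.24 to 0.17, and Npas2 had too few reads to be tested.

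Isolated hepatocytes gave more clock calls for the same pair of genotypes, with 4 of 19 tested genes higher and 11 lower. Arntl was at 6.44 in Double KO and 1.51 in Shp2 KO hepatocytes, Per3 at 0.834 in Double KO and 6.38 in Shp2 KO hepatocytes, and Dbp at 12.5 in Double KO and 82.2 in Shp2 KO hepatocytes. These are genes whose levels swing over the day, and collection time and genotype cannot be told apart in either table. Bhlhe41 fell in both tables.

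Of 21 tested rhythmic output genes 1 rose in whole liver (Cdkn1a) and 6 fell, with a median difference of -0.11. Rgs16, a regulator of G-protein signalling, was at 0.885 in Double KO and 2.95 in Shp2 KO livers, beside 161 in IkkB KO and 38.9 in WT livers. Elovl3, a fatty acid elongase, was at 49.0 in Double KO and 165 in Shp2 KO livers, and Ccrn4l (Nocturnin) at 18.7 in Double KO and 38.1 in Shp2 KO livers. Rgs16 was therefore low in both genotypes without Shp2. Elovl3 is also on the male-biased list.

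Of 19 tested genes of bile acid synthesis and its control 5 fell and 1 rose. Cyp7a1, the rate-limiting enzyme of the classical route, was at 67.0 in Double KO and 135 in Shp2 KO livers, beside 48.6 in IkkB KO and 30.0 in WT livers. Cyp8b1, the enzyme of cholic acid synthesis, was at 280 in Double KO and 514 in Shp2 KO livers, beside 202 in IkkB KO and 136 in WT livers. Both genes were thus highest in Shp2 KO livers, with the Double KO value between those and the values of genotypes that keep Shp2. Nr0b2, which encodes the repressor SHP, was the member that rose, at 14.9 in Double KO and 7.32 in Shp2 KO livers, beside 28 in IkkB KO and 39.6 in WT livers. Nr1h4, the bile acid receptor FXR that induces it, fell to 54.1 in Double KO against 87.7 in Shp2 KO livers. Slc10a1, the bile acid uptake carrier, fell to 237 in Double KO against 384 in Shp2 KO livers, and the export pump gene Abcb11 was not called.

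Lipid synthesis genes fell as well. Of 24 tested genes of cholesterol synthesis and uptake 7 fell and none rose, with a median difference of -0.46. Fdps, which makes farnesyl diphosphate, was at 255 in Double KO and 471 in Shp2 KO livers, and Pmvk, a mevalonate pathway kinase, at 59.2 in Double KO and 109 in Shp2 KO livers. Of 21 tested genes of fatty acid synthesis and elongation 8 fell and 3 rose. Thrsp, a lipogenic regulator, was at 198 in Double KO and 801 in Shp2 KO livers, Fasn at 52.0 in Double KO and 92.8 in Shp2 KO livers, and Me1, the malic enzyme, at 62.3 in Double KO and 134 in Shp2 KO livers. Mlxipl, which encodes the glucose-sensing factor ChREBP, was at 60.6 in Double KO and 108 in Shp2 KO livers. Scd2, the desaturase of fetal liver, went the other way, at 10.5 in Double KO and 3.54 in Shp2 KO livers. Scd1 was too abundant to be tested.

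Genes of glucose handling changed in both directions, with 4 of 25 tested members higher and 5 lower. G6pc, the glucose-6-phosphatase that releases glucose, was at 103 in Double KO and 314 in Shp2 KO livers, beside 278 in IkkB KO and 326 in WT livers. Pklr, the liver pyruvate kinase, was at 58.6 in Double KO and 122 in Shp2 KO livers. The non-hepatocyte isoforms rose, with Pkm at 13 in Double KO and 7.56 in Shp2 KO livers and Hk3, a myeloid hexokinase, at 3.31 in Double KO and 1.65 in Shp2 KO livers. Macrophage markers rose in the same libraries, as given above, and their part in Pkm and Hk3 was not tested. Slc2a4, the insulin-responsive glucose carrier, was among the 12 largest falls, at 0.150 in Double KO and 3.43 in Shp2 KO livers.

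The remaining large falls were spread over several families. BC002163 was at 1.18 in Double KO and 29.0 in Shp2 KO livers, beside 1.69 in IkkB KO and 29.5 in WT livers. Its q in the authors' deposited table was 0.027, far above the smallest. Fam47e was at 1.25 in Double KO and 17.8 in Shp2 KO livers, Gm3704 at 0.376 in Double KO and 4.43 in Shp2 KO livers, and Ces1b, a carboxylesterase, at 46.3 in Double KO and 232 in Shp2 KO livers. Serpina4-ps1, a serpin pseudogene, was at 47.9 in Double KO and 227 in Shp2 KO livers. Hspb1, a small heat shock protein, fell to 28.4 in Double KO against 89.9 in Shp2 KO livers, the sole fall among 18 heat shock genes.

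None of 27 tested respiratory chain and ATP synthase genes and none of 26 cytosolic ribosomal protein genes was called, with medians of -0.29 and -0.17. The median was -0.10 over genes of at least 10 in both genotypes and -0.22 over genes whose higher value was 100 or more. The ribosomal median thus lay between these 2 values. Of 28 tested genes of fatty acid oxidation 3 rose and none fell, near the background of 7.94% higher and 2.83% lower over all tested genes. Fgf21, the fasting hormone, was among those that rose, at 13.2 in Double KO and 7.46 in Shp2 KO livers. Pericentral and Wnt target genes had 1 call of 18, the fall of Cyp1a2 (231 in Double KO and 417 in Shp2 KO livers). In isolated hepatocytes 10 of the 18 were higher, with the glutamine synthetase gene Glul at 246 in Double KO and 33.1 in Shp2 KO hepatocytes and at 555 in Double KO and 544 in Shp2 KO livers.

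In isolated hepatocytes the same genotypes gave 828 calls of 12250 tested genes (6.76%), with 422 higher (3.44%) and 406 lower (3.31%). Of the 1388 genes called in whole liver, 1199 were tested in hepatocytes and 285 were called there too. These are 20.5% of the liver calls and 34.4% of the hepatocyte calls. Their direction was the same for 208 genes (140 higher and 68 lower) and opposite for 77, of which 48 were higher in whole liver and lower in hepatocytes. Over 11076 genes tested in both tables with a value of at least 1, Pearson's r of the differences was 0.17 and Spearman's rho 0.26, a description across genes that are not independent replicates. Thrsp fell in both tables (201 in Double KO and 715 in Shp2 KO hepatocytes), as did Ces1b (51.5 in Double KO and 214 in Shp2 KO hepatocytes). Tff3 rose in both (62.1 in Double KO and 24.3 in Shp2 KO hepatocytes). Elovl3 fell in whole liver and rose in hepatocytes, at 175 in Double KO and 36.1 in Shp2 KO hepatocytes. The tables were normalised apart and no test of the difference between them was made.

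**Figure D4:**
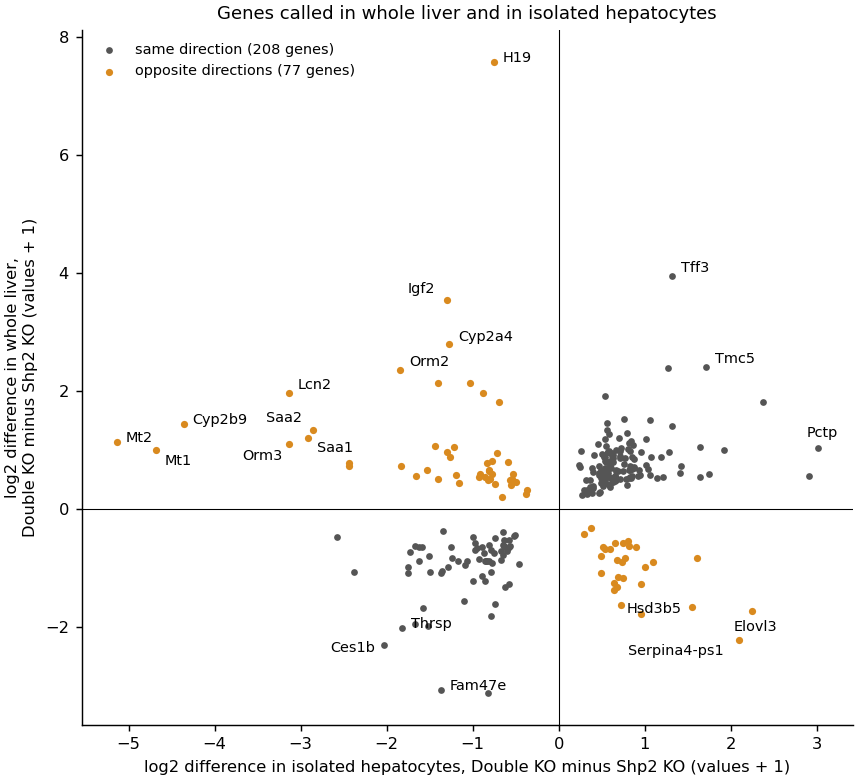
Each point is 1 of the 285 genes called in both tables, with its log2 difference, Double KO minus Shp2 KO (values + 1), in isolated hepatocytes on the horizontal axis and in whole liver on the vertical axis. The 77 orange points lie in the quadrants of opposite direction, among them Mt1, Mt2, Saa1, Saa2 and Lcn2 at the upper left.

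With Shp2 present, IkkB loss gave fewer calls in whole liver: 567 of 12484 tested genes (4.54%), 296 higher (2.37%) and 271 lower (2.17%) in IkkB KO than in WT livers. This pair shares no library with the Double KO and Shp2 KO pair. The WT label names no Cre, so WT and IkkB KO livers may differ in the Cre as well. Of the 1388 genes 218 were called in both pairs, which is 15.7% of the calls made without Shp2 and 38.4% of those made with it. The direction was the same for 133 (74 higher and 59 lower) and opposite for 85. Across 11113 genes tested in both pairs with a value of at least 1, Pearson's r was 0.07 and Spearman's rho -0.05, again as a description. The difference between the effects of IkkB loss with and without Shp2 was not tested for any gene.

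Orm2 and Marco rose in both pairs, and Ugt2b38 and BC002163 fell in both. Mt1 and Mt2 rose in Double KO relative to Shp2 KO livers and fell in IkkB KO relative to WT livers, where Mt2 was at 44.7 in IkkB KO and 1032 in WT livers. Saa2 likewise rose in Double KO livers and was at 76.7 in IkkB KO and 233 in WT livers, called lower. Rgs16 was opposite again, with a fall in Double KO and a rise in IkkB KO livers. Fam47e fell in Double KO livers and rose in IkkB KO livers, to 30.7 against 13.9 in WT livers.

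**Figure D5:**
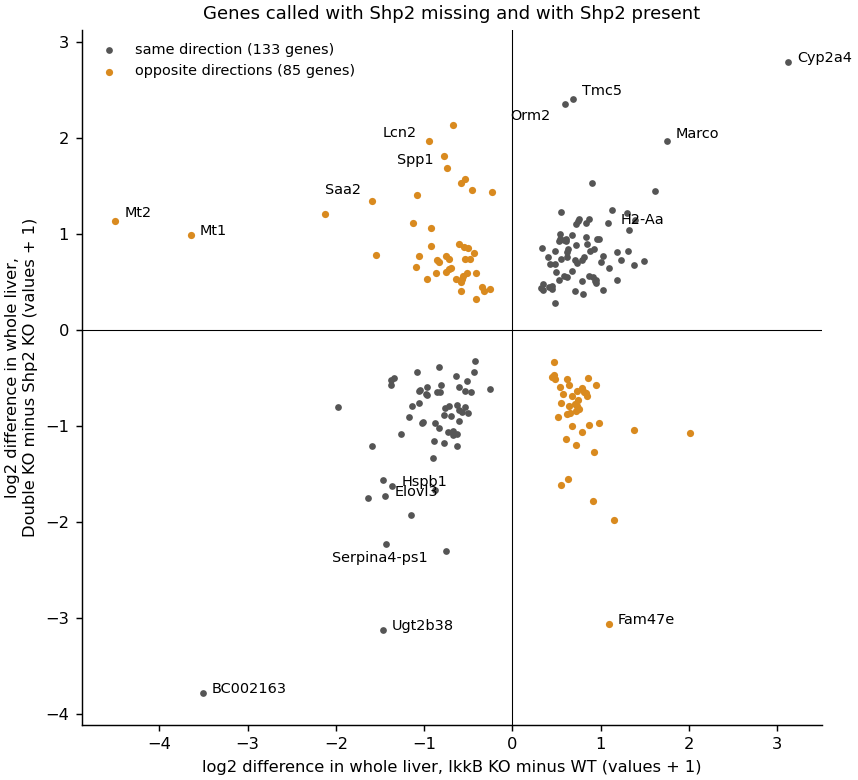
Each point is 1 of the 218 genes called in both pairs of whole livers, with the log2 difference of IkkB KO minus WT on the horizontal axis and of Double KO minus Shp2 KO on the vertical axis (values + 1). The 85 orange points moved in opposite directions, with Mt1, Mt2, Saa2 and Lcn2 at the upper left and Fam47e at the lower right.

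In whole liver and hepatocytes, with and without Shp2, 10 genes were called in the same direction in all 4 comparisons of IkkB loss. The 5 that rose included Cxcl9, a chemokine of the interferon response, with Pctp, Serpina3g and Tmc5. Pctp, a phosphatidylcholine transfer protein, was at 32.7 in Double KO and 15.4 in Shp2 KO livers. Cxcl9 was at 5.05 in Double KO and 3.21 in Shp2 KO livers, beside 9.66 in IkkB KO and 3.67 in WT livers. The 5 that fell were Ikbkb itself, Xaf1, Ly6a, Extl1 and Ttc39aos1, with Ly6a, a surface protein also known as Sca-1, at 50.9 in Double KO and 95.0 in Shp2 KO livers. These 10 genes were chosen after their values were seen. The share of genes called in IkkB KO against WT hepatocytes is not given here, so the count of 10 is not set against a background.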

How the data were processed

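Per the labels' protocols, polyA RNA was taken from whole liver or isolated hepatocytes with RNeasy kits and made into libraries with the Illumina TruSeq v2 kit. Per the submitters' processing notes, FastQC, Cuffdiff and the mm9 build were used; an aligner, annotation or version is not given in the sources used. Each deposited table holds, for every gene and pair of genotypes, 1 value per genotype (unit not named in the header, by Cuffdiff's convention FPKM), a log2 fold change, a p-value and a q-value, all computed by the authors. The deposited liver q-values equal a Benjamini-Hochberg adjustment over all 76420 tests of the 6 pairs to within 5.27e-07. No depth per library is given.

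Genes of status OK that reached 0.1 in a genotype were kept, and log2 differences were computed with a pseudocount of 1 (Python 3.11.15, pandas 2.3.3, numpy 2.4.6, matplotlib 3.10.9). The authors' q-value under 0.05 was the only test used. Genotypes were read from the tables' own codes (DKO, SKO, IKO, WT) and matched to the labels. Symbols matched the reference names for 23472 of 24319 genes. The scripts were tested on simulated data.

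The 61 gene lists (13 of them cell type markers) and the members named were chosen with earlier results of these data known. Named are the targeted genes, the 12 largest rises and falls among called genes with a value of at least 1, up to 6 called members of a list by q, and every clock and IKK list member; a few of these are not reported here. Other genes named, and the promoter motifs, were chosen after their values were seen. Stricter thresholds, another pseudocount, filter, adjustment and centring were tried. Gene lists were given as counts and medians, with no set test.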

Additional observations from a re-analysis of the deposited data

How the results depend on the processing

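No paired analysis was possible because the tables hold 1 pooled value per genotype and no value per replicate; leaving out a replicate, a replicate block and another normalization of counts were not run for the same reason. With q under 0.01, the calls of Double KO against Shp2 KO livers numbered 599 higher and 215 lower, those of hepatocytes 219 and 243, and those of IkkB KO against WT livers 174 and 151. Asking also for a log2 difference of at least 1 left 108 higher and 70 lower in Double KO against Shp2 KO livers, 74 and 107 in hepatocytes, and 46 and 52 in IkkB KO against WT livers. Adjusting within the pair gave 223 higher and 247 lower in hepatocytes and 177 lower in IkkB KO against WT livers. Genes called with hepatocytes at q under 0.01 numbered 98 in the same and 36 in the opposite direction, and with IkkB KO against WT 72 and 39. Fewer calls follow from the stricter rules themselves. Of 1024 single-gene settings, Cd36, Gss and Pmaip1 lost their call under adjustment within the pair, and none changed direction. A list median changed sign in 11 of 244 settings, 8 of them when centred on genes of at least 10, whose median was -0.10; fatty acid oxidation, pericentral, stress response, glutathione, hepatocyte transcription factor and complement genes were among them. With a value of at least 1 required, 4 neutrophil, 3 bile duct and 1 fatty acid synthesis gene were called higher. Centring on abundant genes was chosen after seeing the data, as were the settings for IkkB KO against WT and for hepatocytes, except for the genes called in the same direction in liver and hepatocytes.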

Other observations

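Counts for further gene groups in Double KO against Shp2 KO whole livers are given here beside the background, in which 7.94% of all tested genes rose and 2.83% fell; several of these groups lie near it. Of 20 tested immediate early genes 8 rose and 2 fell: Klf6 was at 5.56 in Double KO and 2.36 in Shp2 KO livers, and Btg2, an antiproliferative gene, at 8.66 in Double KO and 4.79 in Shp2 KO livers, while the nuclear receptor gene Nr4a1 fell to 2.31 in Double KO against 5.73 in Shp2 KO livers. Of 15 tested genes of iron handling 3 rose and 1 fell. Id1, a target of BMP signalling, was at 12.7 in Double KO and 5.23 in Shp2 KO livers, and Hamp2, a hepcidin gene, at 36.2 in Double KO and 60.6 in Shp2 KO livers. The main hepcidin gene Hamp was at 2661 in Double KO and 4320 in Shp2 KO livers and was not called. Slc40a1, the iron exporter that hepcidin degrades as a protein, rose to 59.2 in Double KO against 39.7 in Shp2 KO livers.

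Of 22 tested genes of lipid uptake and lipid droplets 5 rose and 2 fell. The uptake genes Lpl (16.1 in Double KO and 11 in Shp2 KO livers), Cd36 (37.3 in Double KO and 25.8 in Shp2 KO livers) and Vldlr (1.04 in Double KO and 0.381 in Shp2 KO livers) rose. The droplet genes G0s2, an inhibitor of lipolysis, and Fitm1 fell, with G0s2 at 92.5 in Double KO and 210 in Shp2 KO livers and Fitm1 at 60.6 in Double KO and 148 in Shp2 KO livers. Among 27 tested Cyp2 and Cyp3a enzymes of detoxification 3 rose and 5 fell, and among 22 tested hepatocyte transcription factors 4 fell and none rose. Of 25 tested genes of the unfolded protein and integrated stress responses 3 rose and 1 fell. Asns, the asparagine synthetase of the amino acid response, was the one that fell, to 8.35 in Double KO against 17.2 in Shp2 KO livers. Of 24 tested glutathione and Nrf2 target genes 2 rose and 2 fell, and of 30 tested complement and coagulation genes 2 rose and none fell.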
